A study of Homo sapiens with 6 samples.

Results

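NETO2, ADAM19, PHLDB2, JMJD8, CSRP2 and ZNF704 are 6 genes whose array signal was far below control with each of the siRNAs directed at H19. They were picked from the measured values for a large fall with both siRNAs. Each was among the 12 largest called falls of named genes when both siRNAs were averaged, with all 4 siH19 arrays below both control arrays. That ranking left out clusters without a single symbol and LOC, LINC, microRNA, small RNA and open-reading-frame names. The falls given here are therefore a description of the values that chose the genes and carry no test. The 12 also held JAG1, NDUFAB1, DUSP6, SOX4, EGR1 and ARRDC4, which are not among the 6 genes. JAG1 had the largest fall, at a log2 difference of -3.28, and NDUFAB1 the next, at -2.815. The last places of the 12 were held by CSRP2, at -1.90, and ARRDC4, at -1.87. The first places after them were held by ABHD10, at -1.85, and MKX, at -1.83. For each gene the transcript cluster of highest mean signal with a single symbol was used, and each of the 6 genes had 1 such cluster, out of 67528 on the array. All 6 passed the filter on low signal, with a log2 signal of at least 5 on all 6 arrays, and 24721 clusters passed it in all (at least 5 on at least 2 arrays).

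The cells were HCT116, an established human colon cancer line. They were transfected for 48 h at 50 nM with a control siRNA, with siH19-1 or with siH19-2, and each group had 2 biological replicates, each on its own whole-transcript array. All 3 groups received the lipid transfection, no untransfected cells are among the samples, and the siRNA sequences are not used here. H19 is an imprinted long noncoding RNA and the precursor of miR-675, and the comparisons ask how expression differs from control when it is targeted.

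The 6 genes have no single pathway in common. NETO2 and ADAM19 encode single-pass membrane proteins. NETO2 is an auxiliary subunit of kainate-type glutamate receptors, and ADAM19 (meltrin beta) is a membrane-anchored metalloprotease that can cut neuregulin, as shown in the mouse. PHLDB2 (LL5beta) and CSRP2 act at the cell cortex and on actin. PHLDB2 binds phosphoinositides through a pleckstrin homology domain and recruits CLASP proteins that hold microtubule ends near adhesion sites, and CSRP2 is a LIM-domain protein that bundles actin filaments and is best known from smooth muscle. JMJD8 encodes a protein with a JmjC domain that lies in the endoplasmic reticulum lumen and has been tied to TNF signalling to NF-kB. ZNF704 encodes a zinc finger transcription factor that was reported to act with the SIN3A corepressor on PER2 in breast cancer cells.

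No fall of H19 itself was measurable with either siRNA. The H19 cluster, which also carries the MIR675 annotation, gave log2 signals of 4.82 and 5.02 on the control arrays, 4.90 and 4.99 with siH19-1, and 4.95 and 5.02 with siH19-2. These values overlap and lie at the filter value, so they do not check the labels, and every direction below rests on the array labels. Of 10 epithelial markers 7 had a mean log2 signal of at least 5, led by KRT8 at 13.8. The intestinal markers KRT20 (3.46), VIL1 (3.50) and CDX2 (3.86) did not. Of 22 measured markers of other cell types only CD68 reached 5, with a mean of 7.14. Nothing in the labels states whether the replicates were independent beyond the word biological. A p-value here therefore sets a difference against the spread between these arrays, moderated in the limma fit. Less RNA per cell and fewer cells with the RNA cannot be told apart in bulk samples.

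NETO2 had a log2 signal of 9.96 and 9.37 on the control arrays, 6.57 and 6.40 with siH19-1, and 7.65 and 7.79 with siH19-2. The groups did not overlap, and the siH19-1 arrays were lowest. The signal was 11.0% of control with siH19-1 (log2 difference -3.18, SE 0.21) and 26.0% with siH19-2 (-1.945, SE 0.21). Among the 24721 tested clusters the NETO2 fall was the 2nd largest with siH19-1 and the 88th largest with siH19-2.

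ADAM19 had a log2 signal of 10.26 and 9.09 on the control arrays, 7.42 and 7.41 with siH19-1, and 6.34 and 6.46 with siH19-2. Here the siH19-2 arrays were lowest, and the control arrays stood further apart than those of any other of the 6 genes. The gap of 1.17 between the control arrays was reached by 0.777% of tested clusters. The signal was 20.9% of control with siH19-1 (log2 difference -2.26, SE 0.36) and 10.3% with siH19-2 (-3.275, SE 0.36). For the mean of both siRNAs the difference was -2.18 without control replicate 1 and -3.35 without control replicate 2, so its size rested on which control array was used, while its direction did not.

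PHLDB2 had a log2 signal of 10.32 and 10.35 on the control arrays, 7.52 and 7.99 with siH19-1, and 7.96 and 8.42 with siH19-2. The control arrays were nearly equal, and the siH19-1 and siH19-2 arrays overlapped. The signal was 16.7% of control with siH19-1 (log2 difference -2.58, SE 0.22) and 22.6% with siH19-2 (-2.15, SE 0.22).

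CSRP2 had a log2 signal of 8.71 and 8.64 on the control arrays, 7.13 and 6.99 with siH19-1, and 6.43 and 6.55 with siH19-2. The 3 groups did not overlap, and the arrays of a group lay within 0.14 of each other. The signal was 32.6% of control with siH19-1 (log2 difference -1.61, SE 0.11) and 22.0% with siH19-2 (-2.19, SE 0.11). CSRP2 had the smallest mean fall of the 6 genes and the smallest SE.

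JMJD8 had a log2 signal of 9.43 and 9.22 on the control arrays, 7.75 and 7.99 with siH19-1, and 6.40 and 6.76 with siH19-2. The groups formed 3 separate steps, with siH19-2 lowest. The signal was 36.5% of control with siH19-1 (log2 difference -1.46, SE 0.17) and 14.9% with siH19-2 (-2.75, SE 0.17). Among all tested clusters the JMJD8 fall was the 95th largest with siH19-1 and the 18th largest with siH19-2.

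ZNF704 had a log2 signal of 8.28 and 8.17 on the control arrays, 5.63 and 6.08 with siH19-1, and 5.92 and 6.36 with siH19-2. The siRNA groups overlapped. The signal was 19.3% of control with siH19-1 (log2 difference -2.37, SE 0.21) and 23.6% with siH19-2 (-2.08, SE 0.21). Its siH19 arrays came closest to the filter value of 5, down to 0.63 above it. Background probe rows of the array had means between 2.13 and 5.99, with a median of 3.00, so the lowest ZNF704 signals lay inside their range.

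**Figure D1:**
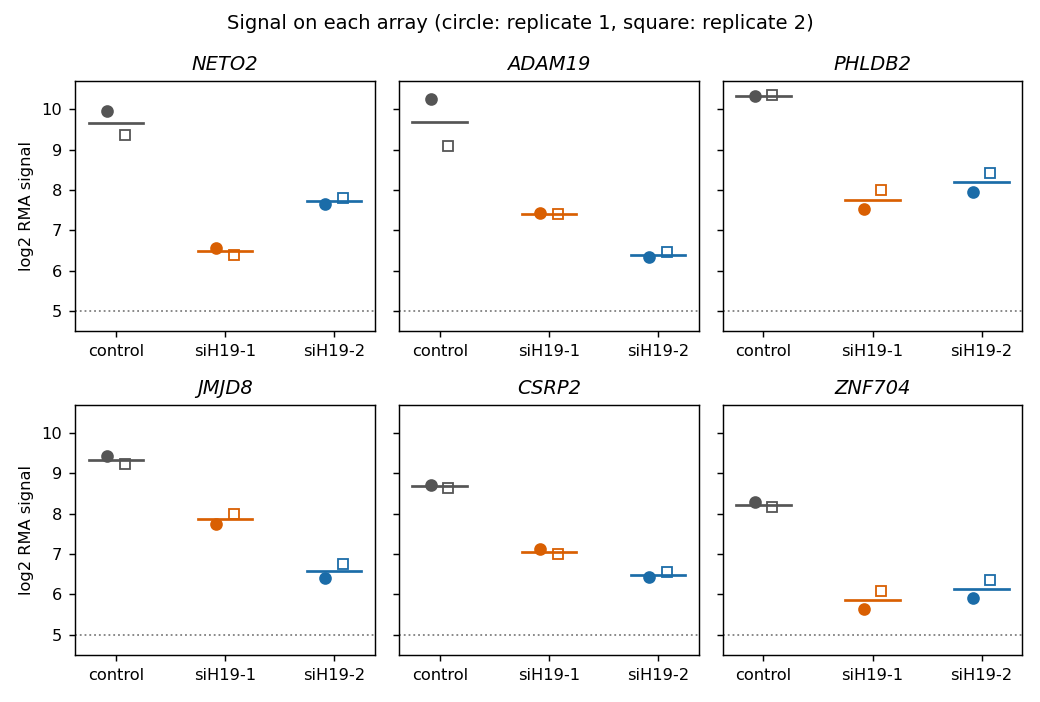
Log2 RMA signal (vertical axis) of each gene on each of the 6 arrays, by group, with circles for replicate 1, squares for replicate 2, horizontal bars for the group mean of 2 arrays and a dotted line at the filter value of 5. All siH19 arrays lie below both control arrays for each gene, siH19-1 is lowest for NETO2, and siH19-2 is lowest for ADAM19, JMJD8 and CSRP2.

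All 6 genes were lower in the mean of both siRNAs by construction, beside 7.17% of all tested clusters called lower and 5.19% called higher in that comparison. Among tested genes with a symbol these shares were 11.0% and 6.04%. Falls to at most -1 on the log2 scale with each siRNA were found in 125 clusters, 0.506% of those tested, against 1.40% with siH19-1 and 3.23% with siH19-2 taken singly. All 4 siH19 arrays lay below both control arrays in 14.3% of tested clusters. With siH19-1 the log2 differences of the 6 genes ranged from -3.18 to -1.46 with a median of -2.31, and with siH19-2 from -3.27 to -1.94 with a median of -2.17. Over all tested clusters the medians were -0.02 and 0.04. Clusters called lower made up 3.56% with siH19-1, where 6.22% were called either way and 2.65% higher, and 10.8% with siH19-2, where 10.2% were also called higher. Both comparisons share the control arrays.

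The order of the falls was not the same. With siH19-1 it ran NETO2, PHLDB2, ZNF704, ADAM19, CSRP2 and JMJD8, from the largest fall to the smallest. With siH19-2 it ran ADAM19, JMJD8, CSRP2, PHLDB2, ZNF704 and NETO2. NETO2 thus moved from the first to the last place and JMJD8 from the last to the second. Neighbouring places were mostly not separated: the ranges over the 4 array-to-array differences overlapped for all 5 neighbouring pairs with siH19-1 and for 4 of 5 with siH19-2. The exception was JMJD8 (-3.03 to -2.46) against CSRP2 (-2.28 to -2.09) with siH19-2. NETO2 (-3.56 to -2.80) and JMJD8 (-1.68 to -1.23), at the ends of the order with siH19-1, did not overlap either.

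The difference between the siRNAs was not used to pick the genes, and it was tested directly. Picking genes for a large fall with both siRNAs may limit how far the siRNAs differ in them. JMJD8 was lower with siH19-2 than with siH19-1 (log2 difference -1.29, SE 0.17, 95% interval -1.71 to -0.87, limma adjusted p = 0.00859), and its 4 array-to-array differences were all negative. CSRP2 was also lower with siH19-2 (-0.57, SE 0.11, interval -0.83 to -0.31, limma adjusted p = 0.0202). NETO2 went the other way and was higher with siH19-2 (1.23, SE 0.21, interval 0.72 to 1.75, limma adjusted p = 0.0154), or 2.35-fold. So 3 of 6 genes passed, 2 lower and 1 higher with siH19-2. Among tested genes with a symbol 22.5% were called in either direction (12.5% lower, 9.99% higher). Among all tested clusters the share was 18.2% (8.42% lower, 9.76% higher).

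The other 3 genes did not pass. ADAM19 was at -1.015 (interval -1.90 to -0.13, unadjusted p = 0.0313, limma adjusted p = 0.109). Its 4 siH19 arrays did not overlap between the siRNAs and neither did those of NETO2, JMJD8 and CSRP2, as in 63.8% of all tested clusters. Its SE of 0.36 was the largest of the 6 genes, which holds the gap between its control arrays. It passed in a fit to the 4 siH19 arrays alone (limma adjusted p = 0.00965) and without control replicate 1 (0.00961) or control replicate 2 (0.00982). PHLDB2 was at 0.43 (interval -0.10 to 0.97, adjusted p = 0.222) and ZNF704 at 0.28 (interval -0.23 to 0.80, adjusted p = 0.393). For PHLDB2 the interval runs from a fold of 0.93 to 1.96, and for ZNF704 from 0.85 to 1.74. Both intervals hold 0 and differences of the sizes between these limits, and do not show that the siRNAs acted alike on these genes.

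With 2 arrays a group, the calls between the siRNAs leaned on single arrays. Leaving out siH19-1 replicate 1, siH19-1 replicate 2, siH19-2 replicate 1 or siH19-2 replicate 2 left NETO2 between 1.15 and 1.32 with limma adjusted p of 0.0681, 0.0905, 0.0791 and 0.0803. CSRP2 lay between -0.64 and -0.50 in the same fits (0.113, 0.0808, 0.119 and 0.0711). JMJD8 kept its call in all but the fits without siH19-1 replicate 2 (0.0624) and siH19-2 replicate 1 (0.0569). These fits assume that the lone array varies like the other groups. No sign changed in any of them.

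**Figure D2:**
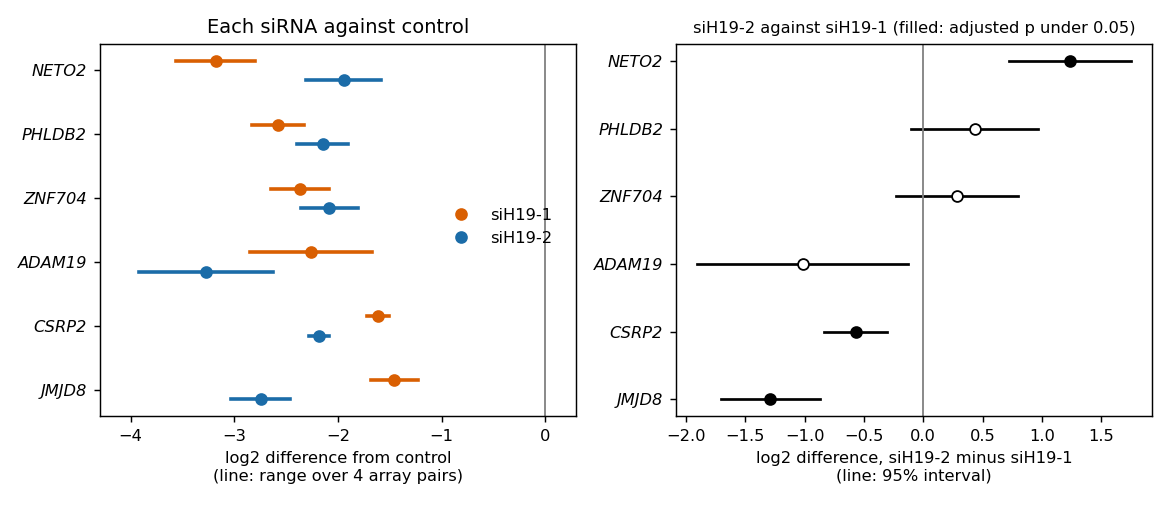
Left, log2 difference from control with siH19-1 (orange) and siH19-2 (blue), where points are differences of group means and lines span the 4 array-to-array differences. Right, log2 difference between siH19-2 and siH19-1 with its 95% interval from the limma fit, filled where the adjusted p is under 0.05: NETO2 lies at 1.23, JMJD8 at -1.29 and CSRP2 at -0.57.

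Over the 6 arrays, 2 of the genes had nearly the same profile. PHLDB2 and ZNF704 were the closest of the 15 pairs, with a Euclidean distance of 0.24 between their mean-centred log2 values. In both, siH19 replicate 2 lay above replicate 1 with each siRNA. That gap was 0.47 with siH19-1 and 0.46 with siH19-2 for PHLDB2, and 0.45 and 0.44 for ZNF704. The control arrays did not show it, with replicate 1 minus replicate 2 at -0.03 and 0.11. The direction was not particular to this pair. In JMJD8 siH19 replicate 2 was also above replicate 1, by 0.24 with siH19-1 and 0.36 with siH19-2. Its control replicate 1 minus replicate 2 was 0.21. JMJD8 and CSRP2 came next at a distance of 0.83, and NETO2 and JMJD8 were furthest apart at 2.62.

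The genes of most similar profile over the 6 arrays, by the same distance, were mostly other large falls. The values were not scaled for size, so this follows largely from the choice of the 6 genes. For PHLDB2 they were SOX4 (distance 0.63), EGR1 (0.74) and ABHD10 (0.75), and for ZNF704 they were ABHD10 (0.56), SOX4 (0.57) and TANK (0.60). SOX4 and EGR1 encode transcription factors, and TANK an adaptor of TRAF proteins. For NETO2 they were the arrestin-domain gene ARRDC4 (0.96), SOX4 (1.00) and EGR1 (1.09). ARRDC4 was, like NETO2, further below control with siH19-1 (-2.35) than with siH19-2 (-1.38). For ADAM19 they were JAG1 (0.76), a gene for a Notch ligand, DUSP6 (0.83), for a phosphatase of ERK, and NDUFAB1 (0.87), for the mitochondrial acyl carrier protein.

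JMJD8 and CSRP2 were themselves further below control with siH19-2, and the distance favours genes of that kind. The closest genes were also further below control with siH19-2. For JMJD8 these were LINC01963 (0.51), the histone variant gene H2AX (0.65) and the gamma-tubulin gene TUBG1 (0.70). TUBG1 was at -0.87 with siH19-1 and -2.16 with siH19-2, beside -1.46 and -2.75 for JMJD8. For CSRP2 they were the Wnt receptor gene FZD3 (0.37), H2AX (0.51) and SCARA3 (0.55). FZD3 was at -1.40 with siH19-1 and -1.85 with siH19-2. These distances are over 6 arrays in 3 groups and describe the arrays only.

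Relatives and partners of the 6 genes were taken from lists drawn up by known roles, with earlier results of these data known. In the mean of both siRNAs, 11 of 80 tested related genes fell and 10 rose, 13.8% and 12.5%, and 59 did not pass. Among all tested genes with a symbol 17.0% were called, 11.0% lower and 6.04% higher, and the median of the related genes was -0.07 against 0.02 over all tested clusters. The lowest related gene in this mean was CSRP1 at -0.945. Of the 21 calls, only PPFIBP1 and CSRP1 were kept without each array in turn, 7 passed in no such fit, and no sign changed. Without control replicates 1 and 2 the counts were 2 and 8 lower and 2 and 3 higher. Without siH19-1 replicates 1 and 2 they were 3 and 3 lower, and without siH19-2 replicates 1 and 2 they were 3 and 6 lower. With limma 0 genes rose without siH19-1 replicate 1, siH19-1 replicate 2 or siH19-2 replicate 1 (16, 14 and 15 at an unadjusted p under 0.05), and 3 rose without siH19-2 replicate 2. The mean calls of TIMP1, TES, VASP, SIN3B and NFKB1 were also lost with no filter and with median centring. Those of ADAM22 and TPM1 were lost with no filter and with scaling to the rows that are not transcript clusters. Those of RECK, CLASP2, SRF and RIOX2 were lost with no filter. The calls named below are read with these limits.

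For NETO2 the partners were below the filter. NETO1, the other member of its family, had a mean log2 signal of 3.34. The kainate receptor genes GRIK1 to GRIK5 lay between 3.23 (GRIK1) and 4.38 (GRIK5), and SLC12A5, the KCC2 transporter gene, at 3.83. All 7 stayed out of the test.

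Among 7 tested ADAM genes, 2 fell and 1 rose. ADAM10, the alpha-secretase gene, fell (log2 difference -0.73, SE 0.11, limma adjusted p = 0.0145). Its signal was 10.22 and 10.15 on control arrays, 10.11 and 10.20 with siH19-1, and 8.64 and 8.86 with siH19-2, so the siH19-1 arrays lay at control level. The siRNAs differed directly (-1.41, limma adjusted p = 0.00436), and that call was kept without each array, whereas the fall in the mean was kept in 2 of 6 such fits. ADAM17, the TNF convertase gene, rose (0.68, adjusted p = 0.0133), at 0.435 with siH19-1 (0.0818) and 0.915 with siH19-2 (0.00577). ADAM22 fell (-0.40, 0.0430), at -0.58 with siH19-1 (0.0353) and -0.215 with siH19-2 (0.199). ADAM20 was at 0.72 (0.0524), with 0.11 for siH19-1 (0.823) and 1.325 for siH19-2 (0.0104). ADAM9 was at 0.42 in the mean (0.0725), with 0.695 for siH19-1 (0.0420) and 0.145 for siH19-2 (0.496). The siRNAs differed directly for ADAM17 (0.48, 0.0349) and ADAM20 (1.215, 0.0148), both higher with siH19-2. They also differed for ADAM15 (-0.86, 0.00754) and ADAM9 (-0.55, 0.0414), both lower with siH19-2. Each of those direct calls was lost in some fits without a single siH19 array. Of 5 tested regulators and convertases, 2 rose, both for inhibitors of metalloproteases. TIMP1 (0.43, 0.0292) was at 0.11 with siH19-1 (0.608) and 0.75 with siH19-2 (0.00662), and the siRNAs differed directly (0.645, 0.0113), a call lost without any one of the 4 siH19 arrays (up to 0.0773). RECK (0.53, 0.0298) was at 0.51 with siH19-1 (0.0700) and 0.55 with siH19-2 (0.0285), with a direct difference of 0.04 (0.850). Its control arrays, at 5.11 and 5.12, lay near the filter value. RHBDF2 (0.09) and the convertase gene FURIN (0.10) did not pass. NRG1, the neuregulin gene, was below the filter at 4.05.

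Of 12 tested genes of the cortical microtubule complex around PHLDB2, 3 fell and 0 rose, beside 11.0% and 6.04% of tested genes with a symbol. Taken singly, siH19-1 had 1 lower and 0 higher, and siH19-2 had 2 lower and 1 higher. The 3 that fell in the mean were the liprin gene PPFIBP1 (-0.87, SE 0.10, limma adjusted p = 0.00931), CLASP1 (-0.78, 0.0131) and CLASP2 (-0.61, 0.0284). PPFIBP1 had a log2 signal of 10.11 and 10.21 on control arrays, 7.99 and 8.18 with siH19-1, and 10.47 and 10.54 with siH19-2. Only the siH19-1 arrays lay below control, at -2.08, and siH19-2 was at 0.34 (adjusted p = 0.0957). The difference between the siRNAs was 2.42 (limma adjusted p = 0.00308). CLASP1 was lower with siH19-2 (-1.19) than with siH19-1 (-0.38, limma adjusted p of the difference 0.0130, lost without any one of the 4 siH19 arrays, up to 0.0840), and CLASP2 was at -0.64 with siH19-2 and -0.58 with siH19-1. CLASP2 passed with siH19-2 (limma adjusted p = 0.0259) and not with siH19-1 (0.0675). ERC1 (0.41, adjusted p = 0.0551), which encodes an ELKS scaffold protein, and the close relative PHLDB1 (0.23, 0.140) did not pass in the mean. ERC1 was at 0.245 with siH19-1 (0.289) and was higher with siH19-2 (0.565, 0.0237). PHLDB3 lay below the filter at 4.62.

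Of 21 tested LIM-domain and actin genes listed around CSRP2, 3 fell and 3 rose. CSRP1, the closest relative of CSRP2 on the list, had a log2 signal of 8.01 and 8.04 on control arrays, 7.49 and 7.68 with siH19-1, and 6.63 and 6.52 with siH19-2. The groups did not overlap and stood in the same order as for CSRP2. The siH19-1 and siH19-2 arrays did not overlap in 63.8% of all tested clusters. CSRP1 fell in the mean (-0.945, SE 0.10, limma adjusted p = 0.00723), at -0.44 with siH19-1 (0.0817) and -1.45 with siH19-2 (0.00290). It was lower with siH19-2 than with siH19-1 (-1.01, 0.00613), a call lost without siH19-1 replicate 2. SRF, the serum response factor gene that drives many actin genes, fell (-0.64, 0.0269), as did the tropomyosin gene TPM1 (-0.41, 0.0389). TPM2 (0.63, 0.0131), the LIM gene TES (0.68, 0.0417) and VASP (0.40, 0.0345) rose. Against control, 9 of the 21 were lower and 2 higher with siH19-2, beside 16.4% and 10.4% of tested genes with a symbol (26.7% in all). With siH19-1, 0 were lower and 3 higher, beside 5.13% and 3.66% (8.78% in all). In the direct comparison 5 of the 21 were lower with siH19-2 and 0 higher. Among tested genes with a symbol 12.5% were lower and 9.99% higher (22.5% in all). The 5 were CSRP1, MYL9 (-1.74), VCL (-1.14), ZYX (-0.46) and TAGLN2 (-0.41), and only the MYL9 call was kept without each array. MYL9 was above control with siH19-1 (0.75, limma adjusted p = 0.0413) and below it with siH19-2 (-0.985, 0.00925). In the direct comparison of the siRNAs 3 of the 7 tested ADAM genes were lower and 2 higher. Over all 80 tested related genes 14 were lower and 7 higher. CSRP3, the muscle relative, was below the filter at 3.77.

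Around JMJD8, 1 of 7 tested JmjC relatives fell, RIOX2 (-0.67, limma adjusted p = 0.0306), a nucleolar oxygenase gene. It was lower with siH19-2 (-1.15) than with siH19-1 (-0.20), with an adjusted p of 0.0139 for the difference. That call was lost in 3 of 6 fits, without siH19-1 replicate 1, siH19-1 replicate 2 or siH19-2 replicate 1 (up to 0.0850). The other JMJD genes tested, JMJD6 (-0.18, 0.383) and JMJD4 (-0.08, 0.638), did not pass in the mean. Of 12 tested genes between the TNF receptor and NF-kB, the receptor gene TNFRSF1A (0.76, 0.0212) and BIRC2 (0.69, 0.0158) rose and NFKB1 (-0.57, 0.0492) fell. TNFRSF1A was at 0.65 with siH19-1 (0.0661) and 0.875 with siH19-2 (0.0145). NFKB1 passed with neither siRNA alone (limma adjusted p 0.0809 and 0.0690), and its call was lost with no filter or median centring. NFKBIA, the inhibitor gene, was at -0.41 in the mean (0.103), -0.25 with siH19-1 (0.408) and -0.575 with siH19-2 (0.0472). CHUK was at 0.29 with siH19-1 (0.246) and -0.61 with siH19-2 (0.0236). Its direct difference was -0.90 (0.00952), a call lost without siH19-1 replicate 1, siH19-1 replicate 2 or siH19-2 replicate 1.

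Around ZNF704, its relatives did not pass: ZNF395 was at 0.19 (limma adjusted p = 0.202) and SLC2A4RG at -0.08 (0.556). Of 16 tested relatives, SIN3 complex and clock genes, 1 fell and 2 rose. The histone deacetylase gene HDAC2 fell (-0.79, 0.00966) and SIN3B rose (0.45, 0.0412). CLOCK rose (0.67, 0.0135), with 10.86 and 11.00 on control arrays, 12.21 and 12.21 with siH19-1, and 10.98 and 11.00 with siH19-2. Only the siH19-1 arrays of CLOCK stood above control, and the siRNAs differed directly (-1.22, 0.00436). In the direct comparison 2 of the 16 were lower with siH19-2, CLOCK and PER2, and 2 were higher. The higher ones were CRY1 (0.68, limma adjusted p = 0.0277) and RBBP4 (0.63, 0.0140). Both of those calls were lost without any one of the 4 siH19 arrays. Among tested genes with a symbol 12.5% were lower and 9.99% higher. PER2 is the reported target of ZNF704. It was at -0.05 in the mean (limma adjusted p = 0.848), at 0.30 with siH19-1 (0.289) and at -0.395 with siH19-2 (0.105). The siRNAs differed directly (-0.695, limma adjusted p = 0.0253), a call lost without any one of the 4 siH19 arrays (up to 0.127).

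**Figure D3:**
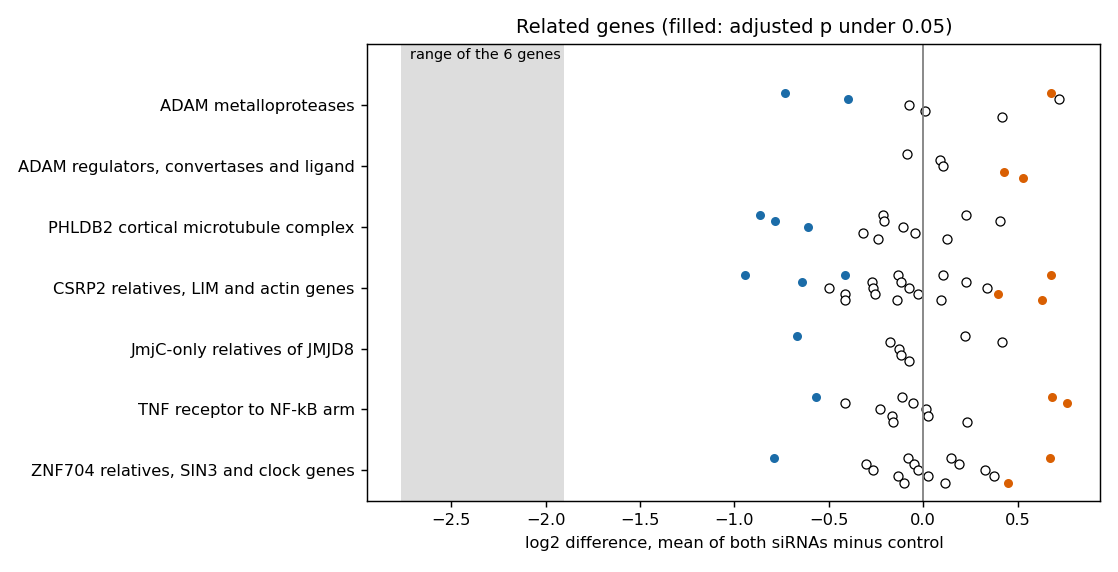
Log2 difference from control, averaged over both siRNAs (horizontal axis) for each tested related gene, by list, with filled points for a limma adjusted p under 0.05 and blue for falls, orange for rises. The grey band spans the 6 genes, from -2.77 to -1.90, which were chosen for their falls, and the related genes run down to CSRP1 at -0.945.

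Genes next to the 6 on the chromosome were taken from the RefSeq gene order. Of 13 neighbours 8 were tested, and 2 of the 8 were lower in the mean of both siRNAs, where 11.0% of tested genes with a symbol were called lower. ABHD10, which encodes a mitochondrial hydrolase and follows PHLDB2 directly, had a log2 signal of 12.80 and 12.74 on control arrays, 10.79 and 10.94 with siH19-1, and 10.90 and 11.04 with siH19-2. Its siH19 arrays lay far below control and overlapped between the siRNAs, as for PHLDB2. The fall was -1.85 (SE 0.10, limma adjusted p = 0.00498), -1.91 with siH19-1 and -1.80 with siH19-2, and it was called without each array. PLCXD2 on the other side of PHLDB2 was at -0.41 (SE 0.15, adjusted p = 0.135), with control arrays at 5.10 and 5.54.

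The other called neighbour, E2F7, a repressor of the E2F family beside CSRP2, did not follow CSRP2. Its signal was 9.61 and 9.52 on control arrays, 9.66 and 9.52 with siH19-1, and 7.65 and 7.71 with siH19-2. It was at 0.02 with siH19-1 (limma adjusted p = 0.934) and -1.88 with siH19-2 (0.00248), and the siRNAs differed directly (-1.91, 0.00308). CSRP2 was low with both. ZDHHC17, on the other side of CSRP2, was at -0.21 in the mean (0.191), with -0.465 for siH19-1 (0.0602) and 0.04 for siH19-2 (0.822). It was higher with siH19-2 than with siH19-1 (0.505, 0.0256), opposite in sign to CSRP2, and that call was lost without any one of the 4 siH19 arrays (up to 0.140). STUB1, which overlaps JMJD8 and encodes the ubiquitin ligase CHIP, was at -0.26 (0.137), and WDR24, on the far side, at -0.07 (0.651). DNAJA2 beside NETO2 (0.20, 0.257) and ZBTB10 beside ZNF704 (0.08, 0.608) did not pass. Neither neighbour of ADAM19 reached the filter.

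**Figure D4:**
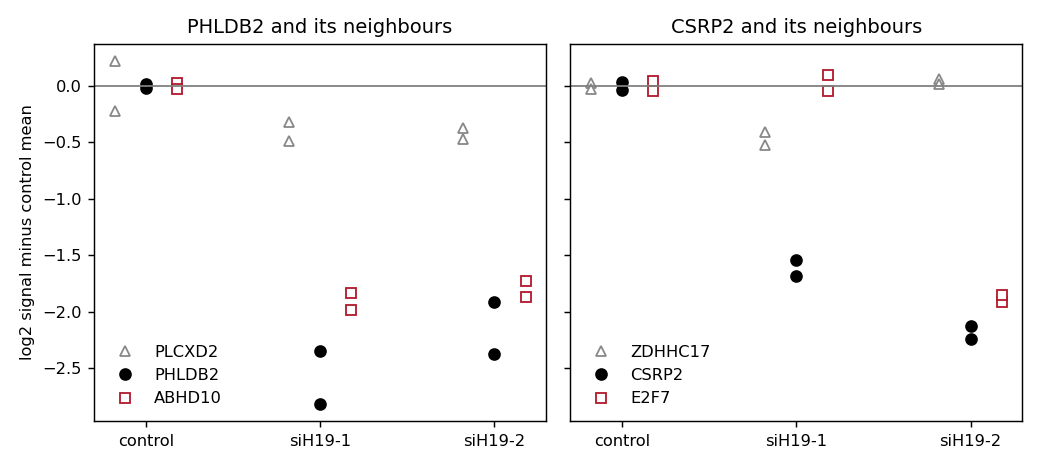
Log2 signal minus the control mean (vertical axis) on each array for PHLDB2 and CSRP2 (filled circles) and for the genes on either side. ABHD10 is low on all 4 siH19 arrays like PHLDB2, and E2F7 is low on the siH19-2 arrays while CSRP2 is low on all 4.

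Promoters were read from RefSeq for 5 of the 6 genes (GRCh38.p14, 250 bases before to 50 after the start). They differed in kind. NETO2 had the most G and C, 81.7% with 54 CpG pairs, and PHLDB2 the least, 52.3% with 1 CpG pair, against medians of 58.3% and 14 over 27305 promoters. ADAM19, JMJD8 and CSRP2 lay between 73.3% and 75.7%. The motifs searched on both strands were TGACTCA (AP-1), GCGGGGGCG and GCGTGGGCG (EGR), TTCCCGCC (E2F), CCGGAAGT (ETS), CACGTG (E-box), ACATTCCA (TEAD), CTTTGATC (TCF/LEF) and the SRF CArG box. Any overlap between motifs was allowed, and none occurred in these promoters. There was 1 match in each of JMJD8 and CSRP2 and none in NETO2, ADAM19 or PHLDB2. The ETS letters were in 4.44% of all promoters and the E2F letters in 3.18%. The other shares were 4.92% for AP-1, 5.02% and 0.784% for the EGR motifs, 7.43% for the E-box, 1.17% for TEAD, 0.656% for TCF/LEF and 1.29% for the CArG box. So no motif was shared by any pair of these promoters.

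The promoters of JMJD8 and CSRP2 are shown because each held a match, given in capitals, and that of PHLDB2 for its low count of CpG pairs. JMJD8 lies at chr16:684285-684584 on the minus strand, with the ETS letters on the opposite strand from position -105, where the first base of the gene is 0. CSRP2 lies at chr12:76878970-76879269 on the minus strand, with the E2F letters, also on the opposite strand, from -207. PHLDB2 lies at chr3:111732246-111732545 on the plus strand. A match describes these letters and is not a measured site.
JMJD8: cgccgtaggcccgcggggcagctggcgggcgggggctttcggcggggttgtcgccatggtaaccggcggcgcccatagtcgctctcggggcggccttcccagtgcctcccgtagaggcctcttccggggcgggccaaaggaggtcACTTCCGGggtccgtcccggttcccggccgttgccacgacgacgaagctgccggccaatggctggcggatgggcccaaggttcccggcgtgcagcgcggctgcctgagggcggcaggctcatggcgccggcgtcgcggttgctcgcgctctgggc
CSRP2: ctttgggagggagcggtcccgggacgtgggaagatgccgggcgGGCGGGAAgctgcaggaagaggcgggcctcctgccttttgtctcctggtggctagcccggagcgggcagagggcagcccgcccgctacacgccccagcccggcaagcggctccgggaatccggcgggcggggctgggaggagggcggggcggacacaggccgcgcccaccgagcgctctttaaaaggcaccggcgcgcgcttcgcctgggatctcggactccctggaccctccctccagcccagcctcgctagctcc
PHLDB2: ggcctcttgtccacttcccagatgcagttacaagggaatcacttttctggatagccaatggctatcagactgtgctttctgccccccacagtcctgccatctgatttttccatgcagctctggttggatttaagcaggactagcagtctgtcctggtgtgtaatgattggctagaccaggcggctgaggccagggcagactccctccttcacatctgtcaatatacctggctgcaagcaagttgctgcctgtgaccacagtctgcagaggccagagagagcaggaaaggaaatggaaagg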

How the data were processed

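Expression was measured on 6 arrays of HCT116 cells, 2 per group, and sample titles gave the groups. The authors deposited log2 signals, made in Affymetrix Expression Console by RMA, per the submitters' processing notes. Versions, parameters and build are not given in the sources used. Of the 70523 rows, 67528 were transcript clusters, the gene-level units of the array. Array medians were 4.10 to 4.20. Symbols came from the platform annotation, updated through RefSeq.

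A cluster was tested where 2 or more arrays reached a log2 signal of 5, which left 24721. A group-means model over the 6 arrays was fitted in limma (version 3.58.1, R 4.3.3) with an intensity trend in eBayes, 3 residual and 2.75 prior degrees of freedom. Two-sided p-values were adjusted over all tested clusters (Benjamini-Hochberg, threshold 0.05). Each SE comes from this fit, and the number of arrays limits the precision. The fit was tested on simulated data.

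The 6 genes and all lists were chosen with earlier results of these data known. Named were the 6 genes, H19, the genes just outside the choice, chromosome neighbours, the 3 genes of nearest profile, direct relatives and, per list, up to 4 related genes of smallest p. GRIK1, GRIK5, SLC12A5, ADAM9, ADAM15, NRG1, TPM1, TES, MYL9, VCL, ZYX, TAGLN2, CHUK, RBBP4, CRY1 and PER2 were named after their values were seen. Alternatives were other filters and normalizations, no trend, a replicate block, the siH19 arrays alone and each array left out.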

Additional observations from a re-analysis of the deposited data

Results flagged for a closer look

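NETO2, JMJD8 and CSRP2 differed between the siRNAs in the direct test. The log2 difference of siH19-2 minus siH19-1 was 1.23 for NETO2 (limma adjusted p = 0.0154), -1.29 for JMJD8 (0.00859) and -0.57 for CSRP2 (0.0202). NETO2 was higher on both siH19-2 arrays than on either siH19-1 array, and JMJD8 and CSRP2 were lower on both. These calls stand beside 22.5% of tested genes with a symbol, and 18.2% of all tested clusters, that differed between the siRNAs.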

How the results depend on the processing

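The mean falls of the 6 genes moved by less than the spread between replicates under the filters, normalizations, trend setting and block tried. Leaving out each array gave -2.86 to -2.27 for NETO2, -3.35 to -2.18 for ADAM19, -2.48 to -2.24 for PHLDB2, -2.21 to -1.99 for JMJD8, -1.94 to -1.86 for CSRP2 and -2.34 to -2.12 for ZNF704. For siH19-2 minus siH19-1 the same fits gave 1.15 to 1.32, -1.075 to -0.955, 0.20 to 0.67, -1.47 to -1.11, -0.64 to -0.50 and 0.06 to 0.51 in that order of genes. CSRP2 was not called between the siRNAs with no filter (-0.57, limma adjusted p = 0.0527), where more clusters were tested, and ADAM19 was called on the 4 siH19 arrays alone (-1.015, adjusted p = 0.00965). Each gene had 1 cluster, so averaging clusters changed nothing.

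Counts of called clusters depended more on the settings. With no filter they were 1489 for the mean of both siRNAs, 607 for siH19-1, 3108 for siH19-2 and 2667 between the siRNAs, against 3054, 1537, 5203 and 4495. Leaving out each array gave 631 to 1735, 0 to 751, 1284 to 3630 and 539 to 4806. The 0 came without siH19-1 replicate 1 or 2, where limma gave 3933 and 3796 clusters at an unadjusted p under 0.05. Related genes called lower were 5 with no filter and 2 to 8 without single arrays, against 11. Those called higher were 5 with no filter, 6 with median centring and 0 to 3 without single arrays, against 10. Scaling to the 2995 rows that are not transcript clusters shifted the overall median by 0.11 with siH19-2 and 0.12 between the siRNAs (log2), and gave 1818 lower and 4400 higher between them, against 2081 and 2414. The split with siH19-2 against control was 2218 lower and 4094 higher, against 2676 and 2527.

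Same-numbered arrays deviated together by a correlation of 0.29 (control and siH19-1), 0.20 (control and siH19-2) and 0.20 (siH19-1 and siH19-2), and the labels do not say what the numbers share. With the replicate block 4090, 2142, 6581 and 5983 clusters were called in the order above. No call of the 6 genes changed with the block: siH19-2 minus siH19-1 had an adjusted p of 0.0139 for NETO2, 0.00941 for JMJD8, 0.0215 for CSRP2, 0.0894 for ADAM19, 0.0906 for PHLDB2 and 0.276 for ZNF704. Between same-numbered arrays that difference was 0.44 and 0.43 for PHLDB2 and 0.29 and 0.28 for ZNF704. Related genes called were 12 lower and 13 higher with it.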
